A study of Mus musculus with 12 samples.

Results

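The genes described here are the ligands and receptors of the classical axon guidance families, as expressed in a mouse neuroblastoma line in which the splicing factor Sap30bp was knocked down and re-expressed. They were chosen by symbol (semaphorins, plexins, neuropilins, Slits, Robos, netrins, Dcc and Unc5 receptors, Eph receptors and ephrins) and by a level of at least 1 RPKM in any of the 6 groups of the authors' deposited table, which gives 1 RPKM value (reads scaled to transcript length and library depth) per group. Such a symbol was carried by 71 of the 54393 genes listed, and 35 of these reached 1 RPKM. The 35 were 11 semaphorins, 7 plexins, 2 neuropilins, 3 Slits, 2 netrins, 3 Unc5 receptors, 1 EphA and 1 EphB receptor, 3 ephrin-A and 2 ephrin-B genes. Of the 35, 29 were at or over 1 RPKM in every group of the authors' deposited table, and Efna3, Efnb3, Ephb3, Sema3f, Sema6b and Slit1 were under it in at least 1 group. A gene of that second kind can be a member only through the group in which it was high. The families were also chosen with earlier results of these data known. Counts of members are therefore set beside the share of all genes or events as a description, not as a test of the families.

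The 12 libraries were polyA RNA of N2a Flp-In rtTA cells, a neuroblastoma line that carries the reverse tetracycline transactivator and, at its Flp-In site, a FLAG-tagged Sap30bp cDNA that doxycycline switches on. In the exon-3-containing line that cDNA held exon 3 of Sap30bp and in the exon-3-lacking line it did not, so isoform and line were one factor. Each line had 2 biological replicates of a rescue group (siRNA against Sap30bp with doxycycline), a knockdown group (that siRNA without doxycycline) and a control group (a non-targeting siRNA pool without doxycycline), with fresh medium at 24 hours and harvest at 72 hours after transfection. The uninduced cDNA was present in knockdown and control cells too, and no group received the control siRNA with doxycycline. Matching wells were pooled before RNA extraction, and the sources used here do not say whether a line was a single clone.

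Guidance ligands steer growing axons and migrating cells by attraction or repulsion. Semaphorins signal through plexins, and the secreted class 3 members mostly need a neuropilin as co-receptor. Slits bind Robo receptors, secreted netrins bind Dcc and Unc5 receptors, and ephrins bind Eph receptor tyrosine kinases on neighbouring cells. Neuroblastoma derives from the neural crest, whose migration these systems guide. SAP30BP is a nuclear protein that acts in human cells with RBM17 in the splicing of short introns.

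Sap30bp stood at 141.3, 18.6 and 33.6 RPKM after rescue, after knockdown and in control cells of the exon-3-containing line, and at 196.5, 21.7 and 40.03 RPKM in the same groups of the exon-3-lacking line, in the authors' deposited table. Sap30bp had a log2 fold change of knockdown over control of -0.60 (FDR 0.0684) in the exon-3-containing and -0.63 (FDR 0.0674) in the exon-3-lacking line of that authors' deposited table, so it did not pass an FDR of 0.05. Rescue over knockdown gave Sap30bp log2 fold changes of 1.62 (FDR 7.13e-11) and 2.05 (FDR 6.86e-19) in the authors' deposited table. Ratios taken from its RPKM values in the authors' deposited table are larger, at 2.86 and 3.12 on the log2 scale (pseudocount 1), and what sets them apart was not tested. The markers of the line were present: Tubb3, a neuronal tubulin, was listed between 414.7 and 531.9 RPKM over the 6 groups of the authors' deposited table. Fibroblast markers summed to between 1.73 and 4.52 RPKM over 10 genes and glial and immune markers to between 9.19 and 11.7 RPKM over 12 genes in the authors' deposited table. The libraries hold inclusion values for 182904 to 207284 splicing events, and no read numbers accompany any value, so the depth is unknown.

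The highest levels among the members were those of Plxna3, a plexin that serves class 3 semaphorins together with neuropilins, and of Unc5b, a repulsive netrin receptor. Averaged over the 6 groups of the authors' deposited table, Plxna3 was at 55.7 RPKM and Unc5b at 51.7 RPKM. The highest member of each other family in the authors' deposited table was Slit2 (29.1 RPKM), Efna5 (28.2 RPKM), Ntng2 (27.5 RPKM), Sema4d (23.7 RPKM), Nrp2 (18.7 RPKM), Epha10 (4.16 RPKM), Efnb2 (1.80 RPKM) and Ephb3 (0.613 RPKM). Ligands and receptors of the semaphorin system were thus both listed. Of the netrins, Ntng2 is membrane-anchored, and the other member, Ntn3, averaged 7.10 RPKM in the authors' deposited table. Whether either acts on the Unc5 receptors of these cells was not tested. The Slits had no receptor of the Robo family among the members: Robo2, the highest of 4 Robo genes, reached 0.86 RPKM after knockdown in the exon-3-containing line and was listed at 0 in both control groups of the authors' deposited table. Dcc, the attractive netrin receptor, was listed at 0.01 RPKM at most in the authors' deposited table. Just inside the limit of 1 RPKM stood Sema3f and Efna3 at 1.07 RPKM and Efnb3 at 1.13 RPKM in their highest group of the authors' deposited table. Just outside it stood Robo2 at 0.86, Epha2 at 0.80 and Efna4 at 0.64 RPKM in their highest group of the authors' deposited table.

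The first comparison asked how loss of Sap30bp changed the levels of these genes. Nrp1, Slit3 and Sema6d rose in both lines after knockdown, and Sema4g fell in both. These 4 are 4 of 35 members that passed an FDR of 0.05 in both lines with 1 sign in the authors' deposited table, where 1.57% of 21541 tested genes did so (0.715% higher and 0.859% lower). Among the 13647 tested genes that reached 1 RPKM in a group, as the members did, 2.06% passed so, 0.718% higher and 1.34% lower, in the authors' deposited table. Because the members were chosen with earlier results known, and Nrp1 and Slit3 were marker genes of that choice, the distance from these shares supports nothing. The other 31 members did not pass in both lines. The median log2 fold change of knockdown over control, as the mean of both lines, was -0.04 over the 35 members and -0.0018 over all tested genes of the authors' deposited table. Of the 35, 29 had 1 sign in both lines. The share of all tested genes that did so is not given here, so nothing is read from this count. A combined p of both lines was computed from the p-values of the authors' deposited table and adjusted over all genes. It passed 0.05 for 17 of 35 members, where 10.6% of all tested genes and 14.1% of those that reached 1 RPKM passed. Efnb3, Ephb3 and Sema6b are among the 17. Efnb3 reached 1 RPKM only after knockdown and Ephb3 only in 1 control group. Sema6b reached 1 RPKM in both control groups and in rescue cells of the exon-3-lacking line, but in neither knockdown group. The place of these genes among the 17 supports nothing.

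**Figure D1:**
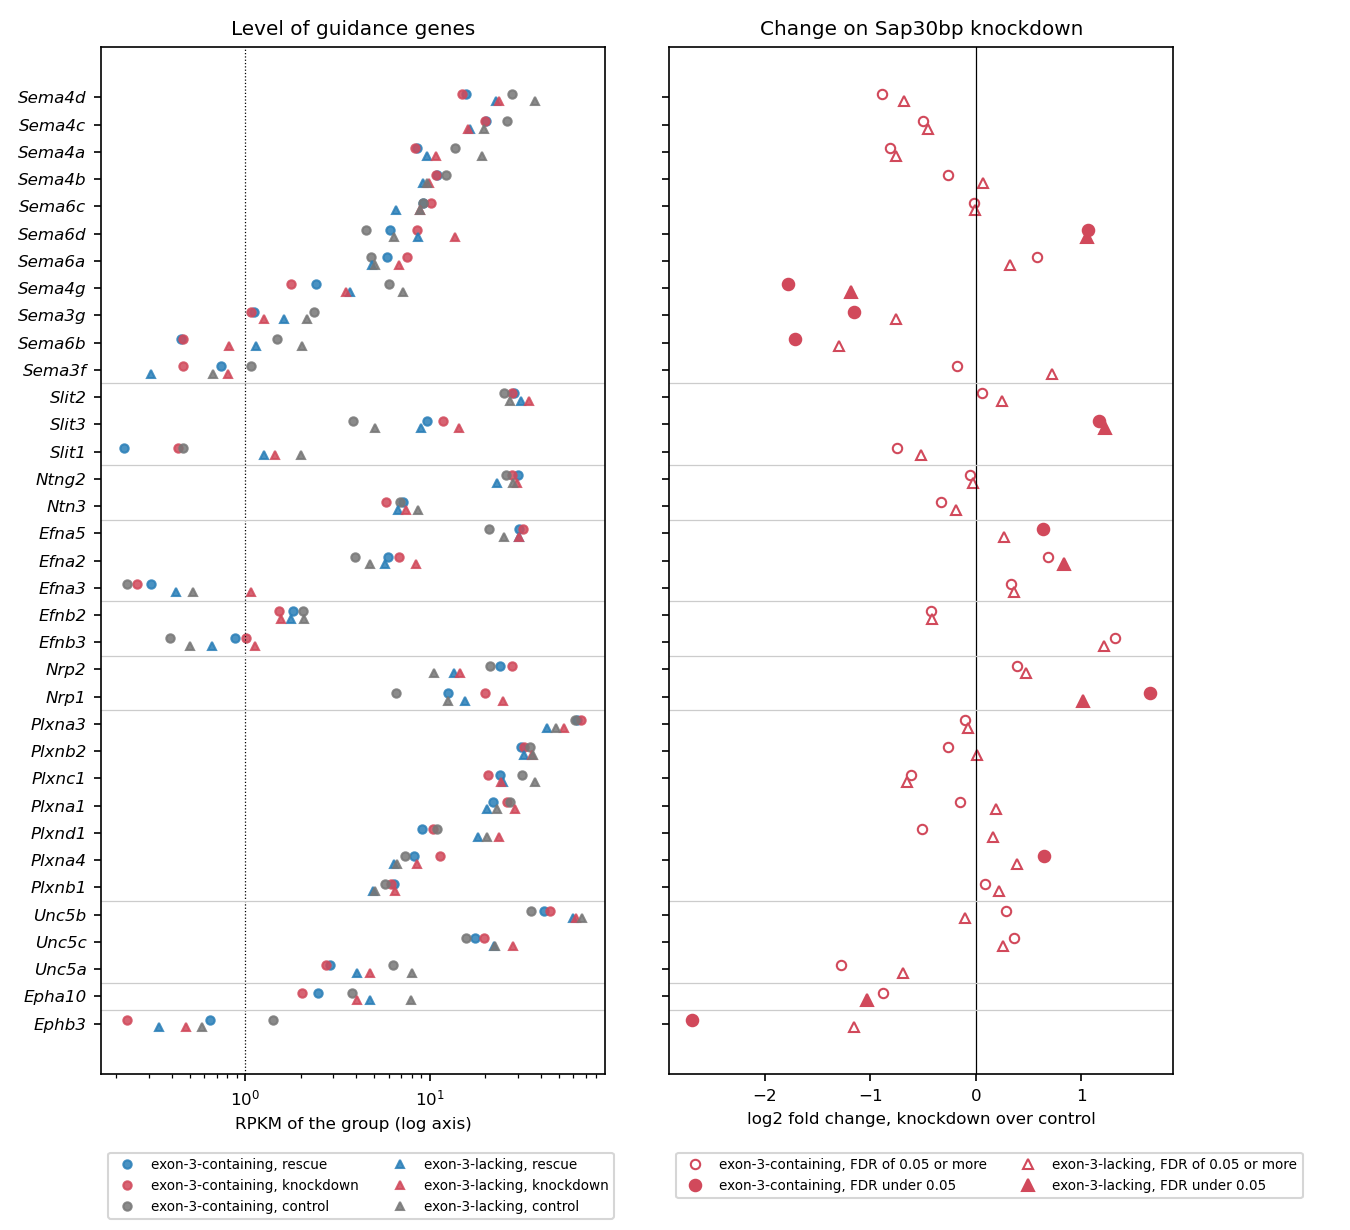
Left, the RPKM value of each of the 35 guidance genes in each of the 6 groups (log axis; circles, exon-3-containing line; triangles, exon-3-lacking line; dotted line, 1 RPKM), as listed by the authors. Right, the authors' log2 fold change of knockdown over control in each line, filled where their FDR is under 0.05; grey lines part the families. Nrp1, Slit3 and Sema6d are filled on the right of 0 in both lines, and Sema4g on the left.

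Nrp1 (ENSMUSG00000025810.9, chromosome 8), the co-receptor of class 3 semaphorins and of VEGF, had the largest rise of the 4 in exon-3-containing cells. Nrp1 is listed in the authors' deposited table at 12.6, 20.01 and 6.55 RPKM after rescue, after knockdown and in control cells of the exon-3-containing line, and at 15.5, 24.8 and 12.5 RPKM in the same groups of the exon-3-lacking line. The knockdown value was the highest of the 3 groups in each line. The log2 fold change of knockdown over control for Nrp1 was 1.66 (FDR 1.18e-07) in the exon-3-containing and 1.01 (FDR 0.00779) in the exon-3-lacking line of the authors' deposited table. Nrp1 is also used by blood vessel cells. Of 10 endothelial markers, 4 reached 1 RPKM in at least 1 group, while Kdr, Tie1, Cldn5 and Emcn were under 0.1 RPKM in every group. The 10 summed to 34.1, 33.5 and 84.7 RPKM after rescue, after knockdown and in control cells of the exon-3-containing line. In those of the exon-3-lacking line they summed to 79.8, 53.9 and 123.7 RPKM in the authors' deposited table. Most of that sum is Egfl7, a secreted vascular protein, which fell in both lines of the authors' deposited table (log2 fold changes -1.55, FDR 1.28e-05, and -1.25, FDR 0.00139).

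Slit3 (ENSMUSG00000056427.10, chromosome 11), a secreted Slit, was listed at 9.68, 11.8 and 3.84 RPKM after rescue, after knockdown and in control cells of the exon-3-containing line of the authors' deposited table. The same groups of the exon-3-lacking line had 9.01, 14.35 and 5.07 RPKM of Slit3 in the authors' deposited table. Each knockdown value is the highest of its line. Its log2 fold changes of knockdown over control were 1.17 (FDR 0.000249) and 1.23 (FDR 0.000117) in the exon-3-containing and exon-3-lacking lines of the authors' deposited table. The other Slits did not pass in either line. Slit2 was listed at 27.9 RPKM after knockdown and 25.3 RPKM in control cells of the exon-3-containing line, and at 34.4 and 27.3 RPKM in those of the exon-3-lacking line of the authors' deposited table (FDR 1 and 0.867). Slit1 was listed at 0.43 and 0.46 RPKM after knockdown and in control cells of the exon-3-containing line and at 1.45 and 2.01 RPKM in the exon-3-lacking line (FDR 0.668 and 0.868 in the authors' deposited table).

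Semaphorins moved in both directions. Sema6d, a transmembrane ligand of plexin-A1, was listed at 6.08, 8.50 and 4.49 RPKM after rescue, after knockdown and in control cells of the exon-3-containing line, and at 8.62, 13.6 and 6.37 RPKM in those of the exon-3-lacking line of the authors' deposited table. The log2 fold changes of Sema6d were 1.06 (FDR 0.00104) and 1.05 (FDR 0.0015) in the exon-3-containing and exon-3-lacking lines of the authors' deposited table. Sema4g, a transmembrane class 4 semaphorin, was listed at 2.41, 1.77 and 6.04 RPKM after rescue, after knockdown and in control cells of the exon-3-containing line and at 3.70, 3.51 and 7.12 RPKM in those of the exon-3-lacking line of the authors' deposited table. Its log2 fold changes were -1.78 (FDR 6.13e-07) and -1.19 (FDR 0.00364) in the authors' deposited table. Sema4g was thus the member with the lowest FDR among those that fell. Of the 11 semaphorins, 8 had a negative mean log2 fold change over both lines of the authors' deposited table. Of the tested genes that reached 1 RPKM, 47.3% had a positive one. Sema6b, among the 8, was over 1 RPKM in both control groups and in neither knockdown group.

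In the exon-3-containing line 9 of 35 members passed an FDR of 0.05, 5 higher and 4 lower after knockdown, where 3.68% of all tested genes passed (1.48% higher and 2.2% lower; 4.76% of those that reached 1 RPKM) in the authors' deposited table. Beside the 4 above, these were Efna5, Plxna4, Sema3g, Sema6b and Ephb3. Efna5, a membrane-anchored ligand of EphA receptors, rose to 31.8 RPKM after knockdown, against 20.96 RPKM in control cells (log2 fold change 0.64, FDR 0.0182, the authors' deposited table). Plxna4, a receptor of class 3 and class 6 semaphorins, rose to 11.4 RPKM, against 7.30 RPKM in control cells (log2 fold change 0.64, FDR 0.0309, the authors' deposited table). Sema3g, a secreted class 3 semaphorin, fell to 1.08 RPKM, against 2.37 RPKM in control cells (log2 fold change -1.16, FDR 0.000417, the authors' deposited table). Both remaining genes were low. Sema6b, a transmembrane semaphorin, stood at 0.46 RPKM after knockdown and 1.48 RPKM in control cells (log2 fold change -1.72, FDR 0.00494, the authors' deposited table). Sema6b was over 1 RPKM in both control groups and in rescue cells of the exon-3-lacking line, and in neither knockdown group. Its membership thus leans on the high side of this comparison, and its place among the 4 lower members supports nothing. Ephb3, a receptor of ephrin-B ligands, stood at 0.23 RPKM after knockdown and 1.41 RPKM in control cells (log2 fold change -2.69, FDR 1.56e-05, the authors' deposited table), and that control group was its only group over 1 RPKM. Ephb3 is thus a member only through the value that makes its fall, and its place among the 4 lower members supports nothing.

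Knockdown in the exon-3-lacking line gave 6 of 35 members that passed, 4 higher and 2 lower after knockdown, where 2.26% of all tested genes passed (1.12% higher and 1.14% lower; 2.8% of those that reached 1 RPKM) in the authors' deposited table. Beside the 4 shared with the other line, these were Efna2 and Epha10. Efna2, an ephrin-A ligand, was listed at 8.38 RPKM after knockdown and 4.74 RPKM in control cells (log2 fold change 0.83, FDR 0.0383, the authors' deposited table). Epha10, an Eph receptor without known kinase activity, was listed at 4.01 RPKM after knockdown and 7.93 RPKM in control cells (log2 fold change -1.03, FDR 0.0171, the authors' deposited table). The exon-3-containing line had log2 fold changes of 0.69 for Efna2 (FDR 0.111) and -0.88 for Epha10 (FDR 0.0593) in the authors' deposited table. The knockdown changes of the lines were also tested against each other with signed z values made from the authors' p-values. Of 35 members 0 passed at an adjusted p under 0.05, where 0.00928% of all tested genes did. Ephb3 was the 1 member with an unadjusted p under 0.05, where 1.25% of all tested genes had one, and this too rests on the control value that made it a member.

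**Figure D2:**
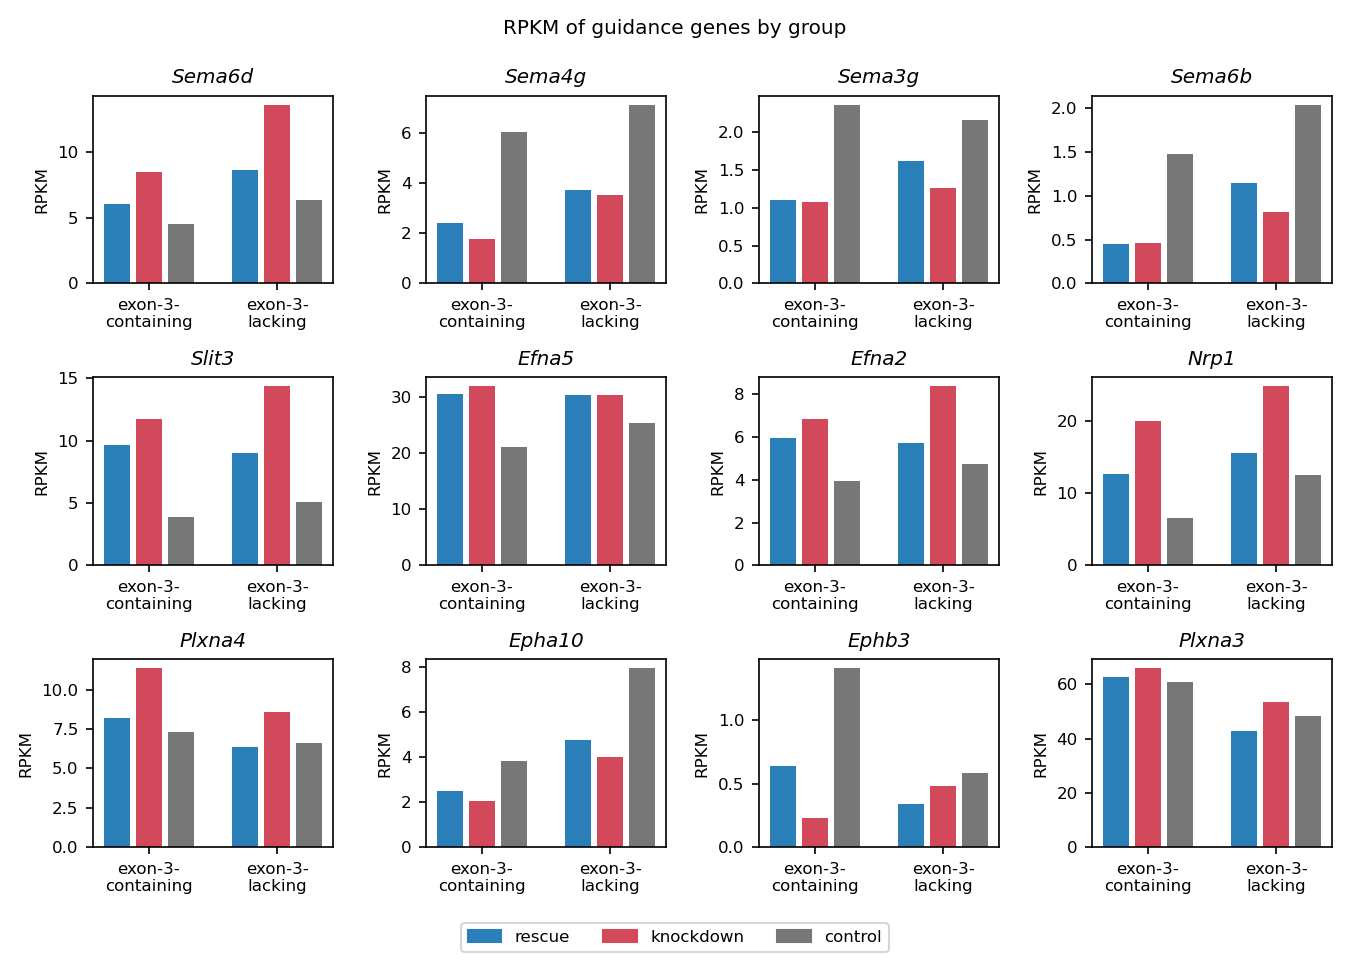
RPKM values from the authors' table of the 11 members that passed an FDR of 0.05 on knockdown in at least 1 line, and of Plxna3, by group (1 bar per group, with no error because the table holds 1 value per group). Knockdown bars are the highest of their line, in both lines, for Sema6d, Slit3, Efna2, Nrp1, Plxna4 and Plxna3, and lower than control in both lines for Sema4g, Sema3g, Sema6b, Epha10 and Ephb3. For Plxna3 the authors' log2 fold changes have the opposite sign (-0.11 and -0.08), so no direction is given for its level.

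Plexins other than Plxna4, both netrins and all Unc5 receptors did not pass in either line. Plxna3 itself (ENSMUSG00000031398.13, chromosome X) was listed at 62.8, 66.0 and 60.9 RPKM after rescue, after knockdown and in control cells of the exon-3-containing line, and at 42.9, 53.4 and 48.4 RPKM in those of the exon-3-lacking line of the authors' deposited table. Its log2 fold changes on knockdown, -0.11 (FDR 0.979) and -0.08 (FDR 1), have the opposite sign to the ratio of its RPKM values in the authors' deposited table, so no direction is given for its level. Unc5a, a netrin receptor, had a log2 fold change of -1.28 with an FDR of 0.0512 in the exon-3-containing line and of -0.69 with an FDR of 0.543 in the exon-3-lacking line of the authors' deposited table. Among family genes under 1 RPKM, the ephrin Efna4 passed in both lines, with 0.64 RPKM after knockdown and 0.14 RPKM in control cells of the exon-3-containing line and 0.34 and 0.03 RPKM in the exon-3-lacking line of the authors' deposited table (FDR 0.0216 and 0.00408).

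Rescue addressed whether re-expressed Sap30bp moved these genes away from their knockdown level. For rescue against knockdown 0 of 35 members passed an FDR of 0.05 in either line, where 0.00464% of all tested genes passed in the exon-3-containing and 0.0232% in the exon-3-lacking line of the authors' deposited table. At an unadjusted p under 0.05 there were 3 of 35 members in the exon-3-containing line and 5 of 35 in the exon-3-lacking line, where 1.33% and 5.98% of all tested genes were in the authors' deposited table. Those of the exon-3-containing line were Nrp1 (p = 0.00706) and Plxna4 (p = 0.014), lower after rescue, and Ephb3 (p = 0.0117), higher after rescue, all with an FDR of 1 in the authors' deposited table. Those of the exon-3-lacking line were Nrp1 (p = 0.0034), Slit3 (p = 0.0123), Sema6d (p = 0.00235), Efna2 (p = 0.00572) and Plxna4 (p = 0.00967), and all 5 were lower after rescue in the authors' deposited table. Their adjusted values were between 0.568 and 0.826 in the authors' deposited table. There 28 of 35 members had a negative log2 fold change of rescue over knockdown, with a median of -0.28 over the members and -0.04 over all tested genes of the authors' deposited table. Of the tested genes that reached 1 RPKM, 49.3% had a positive one in that line. Efna3 and Efnb3 reached 1 RPKM only after knockdown, so their negative values there follow from how the members were chosen and support nothing. In the exon-3-containing line 18 of 35 were negative, with a median of -0.02 over the members and -0.01 over all tested genes of the authors' deposited table. Of the tested genes that reached 1 RPKM, 49.4% were positive in this line.

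Set against control, rescue cells of the exon-3-containing line differed in 4 of 35 members, where 2.27% of tested genes passed in the authors' deposited table. Nrp1 was higher (log2 fold change 0.96, FDR 0.0147), and Sema4g (-1.42, FDR 0.000239), Sema3g (-1.14, FDR 0.000693) and Sema6b (-1.70, FDR 0.00678) were lower than in control cells in the authors' deposited table. In this line Sema6b was over 1 RPKM only in control cells, so its place among the 4 supports nothing. Of the exon-3-lacking line 1 of 35 passed, Sema4g (-1.17, FDR 0.00852), where 0.924% of tested genes did in the authors' deposited table. Whether rescue differed between the lines was not tested for single members. These comparisons share their control and rescue libraries with the ones above.

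The lines also differed before knockdown. This comparison was added after the values had been seen. In control cells 6 of 35 members differed between the exon-3-containing and the exon-3-lacking line, where 3.73% of tested genes did in the authors' deposited table. Nrp2, the second neuropilin, was higher in the exon-3-containing line at 21.3 RPKM, against 10.5 RPKM in the exon-3-lacking line (log2 fold change 0.98, FDR 0.00648, the authors' deposited table). Nrp1 was lower in it at 6.55 RPKM, against 12.5 RPKM in the exon-3-lacking line (log2 fold change -0.99, FDR 0.00672, the authors' deposited table). Unc5b was lower in the exon-3-containing line as well, at 35.3 against 66.8 RPKM (log2 fold change -0.88, FDR 0.000514, the authors' deposited table). Plxnd1, the receptor of Sema3e, stood at 10.9 RPKM in the exon-3-containing and 20.4 RPKM in the exon-3-lacking line (FDR 0.0315, the authors' deposited table), and Sema6d and Slit1 were lower in the exon-3-containing line too (FDR 0.0457 and 0.0179, the authors' deposited table). Slit1 reached 1 RPKM only in the groups of the exon-3-lacking line, so its difference follows from how the members were chosen and supports nothing.

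The other genes of these pathways were counted by list, beside the 1.57% of all tested genes of the authors' deposited table that passed in both lines. Among 28 tested signal transducers of semaphorins and plexins, Mical2, a monooxygenase that oxidises actin, fell in both lines (log2 fold changes -1.32, FDR 0.00324, and -1.11, FDR 0.0321) and none rose in both, in the authors' deposited table. Among 23 tested genes of Slit and Robo signalling 0 passed in both lines, and their largest mean log2 fold changes belonged to Srgap1, a GTPase activator that binds Robo, at 0.52 and 1.61, and Pak3, a kinase, at -0.69 and -0.85 in the exon-3-containing and exon-3-lacking lines of the authors' deposited table, both under 1 RPKM. Vasp, which extends actin filaments, followed at -0.52 and -0.47, and the profilin Pfn2 at -0.35 and -0.55 in the authors' deposited table. Among 28 tested genes of ephrin and Eph signalling the adaptor Grb10 rose in both (1.32, FDR 0.0186, and 1.67, FDR 9.15e-05) and none fell in both, in the authors' deposited table. Among 30 tested genes of netrin and other guidance systems 2 rose in both lines and none fell in both. These were Flrt3, a ligand of Unc5 receptors and latrophilins (log2 fold changes 1.29, FDR 0.000251, and 1.53, FDR 1.45e-05), and Tenm2, a teneurin listed at 1.16 and 0.47 RPKM after knockdown and at 0.01 RPKM in both control groups of the authors' deposited table. The median mean log2 fold changes of the 4 lists, in the order given, were 0.00, 0.05, 0.13 and 0.04 in the authors' deposited table. Of 18 tested neuronal markers, Phox2a, a transcription factor of noradrenergic neurons, rose in both lines (1.31, FDR 9.93e-05, and 0.96, FDR 0.0175) and none fell in both, in the authors' deposited table. In the exon-3-containing line 4 of the 18 were higher, Phox2a, Dbh, Gap43 and Hand2, where 1.48% of all tested genes were, and in the exon-3-lacking line 1 was, Phox2a, where 1.12% were, in the authors' deposited table. The part of any other cell type or state in the changes above was not tested, and in RNA from whole cultures a change in RNA per cell and a change in the share of cells cannot be told apart.

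The next comparison asked which splicing events of these genes moved with Sap30bp. Among the events that could be fitted, those called on knockdown were all in Plxna3: 5 of its introns were retained more and 1 of its exons was included less. Retention and inclusion are given as the percent of transcripts that keep the intron or exon, for each library. Of 1405 events of member genes, 94 in 19 genes were measured in each of the 12 libraries and averaged between 2% and 98%. These were 70 introns, 16 exons, 5 alternative 3′ and 3 alternative 5′ splice sites. As the mean of both lines, 6 of 94 were called (limma, adjusted p under 0.05 and at least 15 percentage points), where 1.48% of 28980 fitted events were called. Among introns it was 5 of 70, all higher, where 1.49% of 17096 introns were called higher. Among exons it was 1 of 16, lower, where 1.6% of 6738 exons were called lower. Single libraries carry many of these calls: dropping a library left 1 call for control replicate 1 of the exon-3-lacking line, 2 for control replicate 1 of the exon-3-containing line and 3 for knockdown replicate 2 of the exon-3-lacking line. It was 0 when events with a mean outside 2% to 98% were kept in the fit.

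The 32 introns of Plxna3 in the inclusion table match, in order and in length, the 32 introns of the GENCODE M21 transcript Plxna3-201, which gives the intron and exon numbers used here; 31 of them lie within the coding region. The called introns were 12, 13, 14, 19 and 25, of 134, 85, 69, 90 and 77 nt. Introns 12 to 14 are consecutive, and the called exon, exon 13, lies between introns 12 and 13. Intron 12 is kept in 2 annotated transcripts and intron 10 in 1, so their sequences can be read from the annotation; the other called introns are in no annotated transcript and are shown by the exon ends they separate. Intron 10, of 140 nt, is shown beside intron 12 because it is of like length and did not pass in the fit, although the authors' deposited table calls it in the exon-3-containing line (20.8 points). Intron sequences have their first and last 2 bases in capitals (the splice site dinucleotides), and exon 13 its last 3 bases. All are from GRCm38, plus strand.
Plxna3 intron 12 (chrX:74335867-74336000): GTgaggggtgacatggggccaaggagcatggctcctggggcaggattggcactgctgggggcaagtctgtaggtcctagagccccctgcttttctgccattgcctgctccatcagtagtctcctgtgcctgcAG
Plxna3 intron 10 (chrX:74335158-74335297): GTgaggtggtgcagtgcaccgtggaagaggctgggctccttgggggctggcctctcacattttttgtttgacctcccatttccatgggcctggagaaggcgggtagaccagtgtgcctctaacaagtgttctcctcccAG
Plxna3 exon 13 (chrX:74336001-74336191): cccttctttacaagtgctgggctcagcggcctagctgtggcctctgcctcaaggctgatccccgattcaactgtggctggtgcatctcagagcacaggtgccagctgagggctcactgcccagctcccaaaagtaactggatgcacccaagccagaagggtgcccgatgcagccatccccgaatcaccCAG
Both introns begin with GT and end with AG. In the 20 bases before the final AG, C or T takes 13 positions in intron 12 and 14 positions in intron 10, and G or C makes up 61.2% of intron 12 and 57.9% of intron 10. Exon 13 has 191 bases, which is not a multiple of 3.

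The junctions that correct splicing makes at the called introns are given as 15 bases of each exon, with the last 3 bases of the upstream exon in capitals.
Plxna3 exons 12 and 13: ctcctagcttccGAGcccttctttacaagt
Plxna3 exons 13 and 14: ccccgaatcaccCAGattcatccacttaca
Plxna3 exons 14 and 15: tgtcagtgctgaAAGgatcgtatgtgagat
Plxna3 exons 19 and 20: catgttgtattgAAGggcaagaacctgatc
Plxna3 exons 25 and 26: gactataagaccCTGactctgcattgtgtg
Of these 5 upstream exons 4 end in AG, and exon 25 ends in CTG.

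Intron 12 of Plxna3 (mm9 chromosome X, 71581206 to 71581339) was retained in 44.95% and 44.7% of transcripts in rescue cells, 57.6% and 66.4% in knockdown cells and 12.6% and 27.5% in control cells of the exon-3-containing line. Retention of intron 12 in the exon-3-lacking line was 36.2% and 53.3% in rescue, 51.7% and 67.0% in knockdown and 20.9% and 27.3% in control cells. Every knockdown library lay above every control library of its line. The share of all events that separate in this way is not given here, so nothing is read from it. The difference of knockdown and control for intron 12 was 38.6 points (SE 5.16, adjusted p = 0.00475, limma) as the mean of both lines, 42.0 points (adjusted p = 0.0416) in the exon-3-containing line and 35.3 points (adjusted p = 0.0996) in the exon-3-lacking line. In this fit, which has no replicate block, intron 12 was the only member event called within a line: 1 of 94 in the exon-3-containing line, where 0.338% of all events were called. That call was lost, leaving 0, when a value was needed in only 10 of 12 libraries, with no filter on the mean, and with only the libraries of that line in the fit. For the exon-3-lacking line limma called 0 of 94, where 0.0207% of all events were called, with 15 of 94 at an unadjusted p under 0.05 against 10.5% of all events. With replicate number as a block, more member events were called in each line, as given in the closing section. No label says that a replicate number marks a shared day.

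Intron 13 of Plxna3 (mm9 chromosome X, 71581531 to 71581615) was retained in 18.9% and 21.6% in rescue, 41.4% and 60% in knockdown and 5.2% and 7.1% in control cells of the exon-3-containing line. Retention of intron 13 in the exon-3-lacking line was 20% and 36.7% in rescue, 30% and 60% in knockdown and 7.1% and 11.4% in control cells. Knockdown and control libraries did not overlap in either line, and the rise of 40.2 points (SE 6.48, adjusted p = 0.00992, limma) was the largest of any member event. Intron 14 (71581762 to 71581830) was retained in 15% and 15.9%, 24.0% and 36.1%, and 2.7% and 7.6% in rescue, knockdown and control cells of the exon-3-containing line, and in 6.8% and 16.1%, 16.9% and 30.8%, and 6.1% and 8.0% in those of the exon-3-lacking line. It rose by 20.8 points (SE 3.83, adjusted p = 0.0159, limma).

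Introns 19 and 25 stand apart from that block. Intron 19 (mm9 chromosome X, 71583160 to 71583249) was retained in 19.6% and 16.1% in rescue, 35.2% and 23.3% in knockdown and 4.1% and 8.0% in control cells of the exon-3-containing line, and in 15.3% and 14.5%, 12.2% and 17.8%, and 2.9% and 10.4% in those of the exon-3-lacking line. Its rise was 15.8 points as the mean of both lines (SE 3.18, adjusted p = 0.0229, limma), with 23.2 points in the exon-3-containing and 8.31 points in the exon-3-lacking line. Intron 25 (71584728 to 71584804) was retained in 17.9% and 14.2% in rescue, 21.3% and 30.3% in knockdown and 4.8% and 7.3% in control cells of the exon-3-containing line, and in 11.9% and 17.1%, 21.3% and 32.4%, and 7.8% and 9.5% in those of the exon-3-lacking line. It rose by 19.0 points (SE 3.23, adjusted p = 0.0119, limma). No knockdown library of either intron overlapped a control library of its line, and nothing is read from that, as for intron 12.

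**Figure D3:**
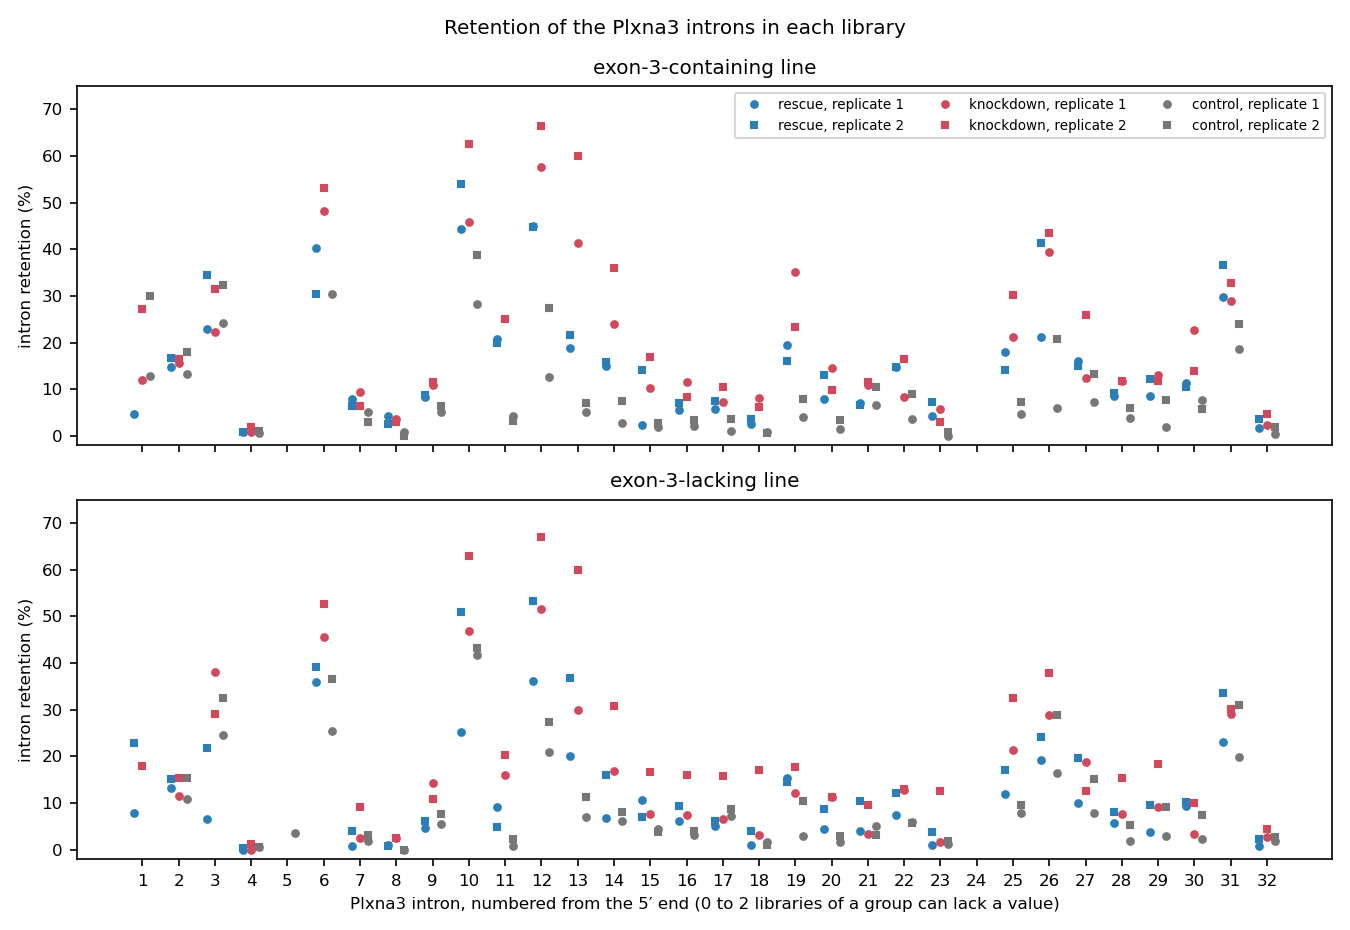
Retention in percent of each Plxna3 intron, numbered from the 5′ end, in each library (circles, replicate 1; squares, replicate 2), for rescue, knockdown and control cells of both lines. Knockdown values of introns 12 and 13 reach 66.4% and 60% in the exon-3-containing line, above all control values of these introns, and introns 5 and 24 have 1 value or none.

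All 25 fitted introns of Plxna3 had a positive mean difference of knockdown and control, from 0.367 to 40.2 points with a median of 7.38. Over all 17096 fitted introns the median was 0.82 points. The share of all introns with a positive difference is not given here, and the 25 are introns of 1 gene measured in the same libraries. Nothing is therefore read from the count of 25. Median retention over the 25 introns was 11.0%, 13.7% and 6.04% in rescue, knockdown and control cells of the exon-3-containing line, and 9.78%, 12.9% and 6.55% in those of the exon-3-lacking line. Introns 26 (149 nt) and 10 (140 nt) differed by 19.4 and 16.6 points and did not pass (SE 5.20 and 6.21, adjusted p = 0.0669 and 0.175, limma). Intron 20 (79 nt) had an adjusted p of 0.0229 with 9.32 points, under the size limit. Introns 2, 3 and 32 (374, 461 and 1375 nt) had the smallest differences, 0.367, 1.83 and 1.89 points. Replicate 2 had the higher retention in 17 to 23 of the 25 introns in each of the 6 groups. The median gap of replicate 2 over replicate 1 was 1.53 to 7.55 points over these introns and 0.33 to 1.64 points over all introns, and what sets it was not tested.

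Short introns of Plxna3 held most of the calls. Of its 9 fitted introns under 100 nt 4 were called, with a median difference of 9.32 points, and of 8 introns of at least 100 and under 200 nt 1 was called, with a median of 8.64 points. None of its 8 longer introns was called. In all genes that are no members, 7.47% of 1940 introns under 100 nt were called higher, with a median difference of 3.51 points, and 2.3% of 2085 introns of at least 100 and under 200 nt, with a median of 1.92 points. Longer introns of these genes were called higher in 1.08% of 3146 in the shorter class and 0.223% of 9855 in the longest class, so the 0 of 8 is near that background. The other guidance genes had 45 fitted introns in 15 genes and 0 called (limma), 9 of them under 100 nt with a median of 2.88 points. Plxnb2, a receptor of class 4 semaphorins with 5 fitted introns all under 200 nt, and Sema4c, a class 4 semaphorin with 8 fitted introns under 200 nt, had none called. At the shares called in all other genes these counts of 0 are near the background, and nothing is read from them.

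**Figure D4:**
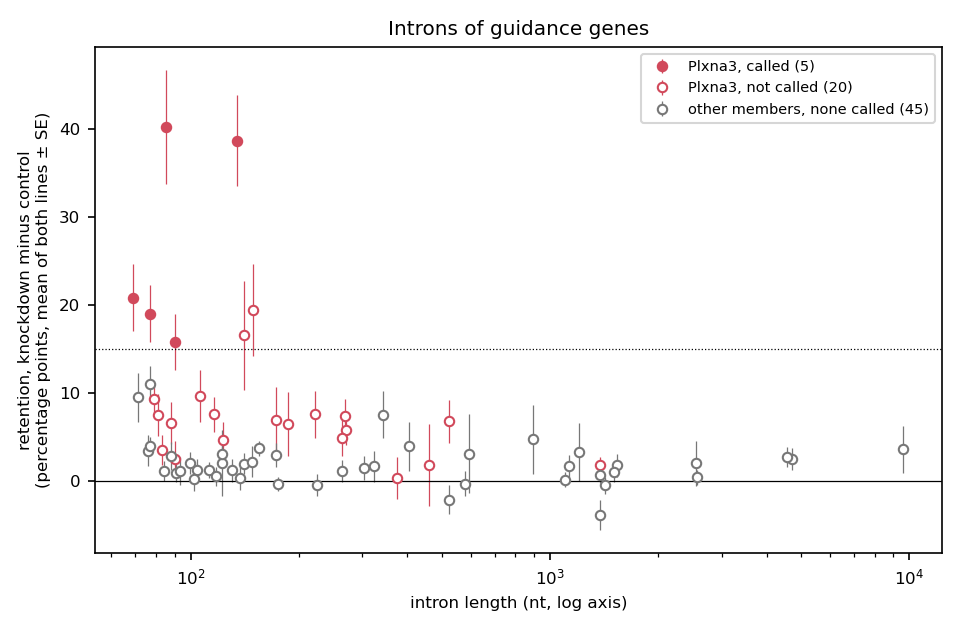
Difference in retention of knockdown and control (percentage points, mean of both lines, with the standard error from limma) against intron length (log axis) for the 70 fitted introns of guidance genes. The 5 called introns, all of Plxna3, lie between 15.8 and 40.2 points at 69 to 134 nt; the dotted line marks 15 points, and 45 introns of other members lie at 11.0 points or less.

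Exon 13 of Plxna3 (mm9 chromosome X, 71581340 to 71581530) was included in 89.2% and 81.3% in rescue, 83.0% and 80.8% in knockdown and 100.0% and 97.1% in control cells of the exon-3-containing line. Its inclusion in the exon-3-lacking line was 92.1% and 82.3% in rescue, 86.8% and 64.2% in knockdown and 96.4% and 93.7% in control cells. Every knockdown library lay below every control library of its line, and nothing is read from that, as for intron 12. The drop as the mean of both lines was -18.1 points (SE 4.18, adjusted p = 0.0391, limma). The drop in the exon-3-lacking line rests mainly on the library with 64.2%. The introns on either side of this exon had the largest differences of all member events, and exon 13 and introns 12 and 13 share their reads' region and are not independent measures.

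Fitted events of other members differed by less than 15 points, so none was called. Without the size limit, 3 of them had an adjusted p under 0.05. The share of all fitted events at that looser rule is not given here, so nothing is read from this count. A 77-nt intron of Plxnd1 (mm9 chromosome 6, 115909859 to 115909935) was retained in 18.9% and 10.5% in knockdown and 3.45% and 2.8% in control cells of the exon-3-containing line, and in 16.3% and 13.5% and in 5.5% and 3.5% in those of the exon-3-lacking line (difference 11.0 points, SE 2.06, adjusted p = 0.0166, limma). A 155-nt intron of the same gene differed by 3.75 points (adjusted p = 0.0346, limma). A 165-nt exon of Unc5b (mm9 chromosome 10, 60240138 to 60240302) was included in 92.3% and 91.2% in knockdown and 100.0% and 97.7% in control cells of the exon-3-containing line and in 94.05% and 90.8% and in 99.7% and 98.7% in those of the exon-3-lacking line (difference -6.96 points, SE 1.30, adjusted p = 0.0163, limma). In these 3 events knockdown and control libraries did not overlap in either line. The share of all events without overlap is not given here, so nothing is read from that either. Of the genes whose level rose in both lines, Slit3 had 1 fitted event, an intron of 9622 nt with a difference of 3.62 points (adjusted p = 0.512, limma), and Nrp1 and Sema6d had none.

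**Figure D5:**
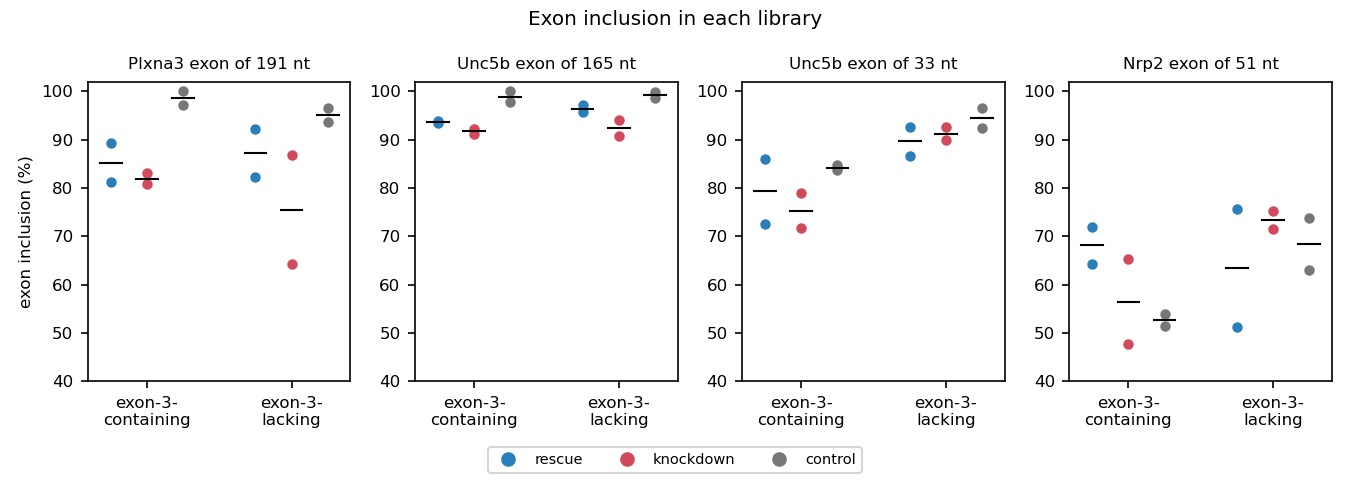
Inclusion in percent of 4 exons of guidance genes in each library (points) with the group mean (line), for rescue, knockdown and control cells; the axis starts at 40%. Exon 13 of Plxna3 and the 165-nt exon of Unc5b are lower in every knockdown library than in the control libraries of the same line, while the 33-nt exon of Unc5b is lower in each knockdown library of the exon-3-containing line, at 71.8% and 78.9%, than in those of the exon-3-lacking line.

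Rescue against knockdown changed 0 of 94 member events by limma in either line, where 0% of all events were called in the exon-3-containing and 0.00345% in the exon-3-lacking line. At an unadjusted p under 0.05 there were 7 of 94 in each line, where 6.84% and 8.57% of all events were. For intron 13 of Plxna3 the difference of rescue and knockdown was -30.4 points (SE 9.17, adjusted p = 0.541) in the exon-3-containing and -16.6 points (SE 9.17, adjusted p = 0.665, limma) in the exon-3-lacking line. For intron 12 it was -17.2 points (adjusted p = 0.699) and -14.6 points (adjusted p = 0.621, limma), with an SE of 7.30 in both. Introns 12 and 13 were named for their rise in the same knockdown libraries, so nothing is read from these drops. The knockdown effect differed between the lines in 0 of 94 member events by limma, where 0% of all events were called, with 1 of 94 at an unadjusted p under 0.05 against 3.2% of all events.

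The authors' deposited table of differential splicing events lists 18 events of member genes among 2175. For knockdown in the exon-3-containing line it calls 11 of these 18, 10 of them in Plxna3, where it calls 44.5% of all events it lists. For the exon-3-lacking line it also calls 11, 7 of them in Plxna3, where it calls 37.1%. Beside introns 12, 13, 14 and 25 and exon 13, the authors' deposited table calls 2 Plxna3 introns in both lines that lack a value in 1 library and could not be fitted. These are intron 6 (378 nt; 18.8 and 17.8 points in the exon-3-containing and exon-3-lacking lines) and intron 11 (271 nt; 26.4 and 16.1 points) of the authors' deposited table. For rescue against knockdown the authors' deposited table calls intron 12 (-17.5 points) and intron 13 (-29.6 points) in the exon-3-containing line, 2 of the 18 where it calls 6.99% of its events, and 0 of 18 in the exon-3-lacking line, where it calls 18.6%. For rescue against control it calls 4 of the 18 in the exon-3-containing line (19.2% of its events) and 2 in the exon-3-lacking line (11.5%), and intron 12 is among them in both, at 24.00 and 21.2 points in the authors' deposited table. The sources used here do not give the rule behind these calls. Introns 12 and 13 are also called on knockdown from the same knockdown libraries, so their calls for rescue against knockdown are no separate sign of rescue.

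Outside Plxna3 the authors' deposited table calls 5 events on knockdown. For the exon-3-lacking line these are a 138-nt exon of Ntng2, a membrane-anchored netrin (20.6 points), a 132-nt exon of Plxna4 (-18.2 points), an alternative 5′ splice site of Sema4c (18.6 points) and an alternative 3′ splice site of Sema6d (-18.7 points) in the authors' deposited table. In the exon-3-containing line it is an alternative 5′ splice site of Nrp1 (18.3 points in the authors' deposited table). The Sema4c site has 18.8 points in the exon-3-containing line of the authors' deposited table and no call there. None of the 5 met the conditions for the fit, so no test of them is given here.

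A neuropilin and a netrin receptor also have exons that the authors' deposited table calls for other comparisons. A 51-nt exon of Nrp2 is listed as 15.2 points higher after rescue than in control cells of the exon-3-containing line, and a 33-nt exon of Unc5b differs by -16.19 points between knockdown cells of the exon-3-containing and of the exon-3-lacking line, in the authors' deposited table. For these comparisons that table calls 19.2% and 9.29% of its events. The Unc5b exon was included in 72.5% and 86.1% in rescue, 71.8% and 78.9% in knockdown and 83.8% and 84.7% in control cells of the exon-3-containing line, and in 86.6% and 92.6%, 92.6% and 89.9%, and 96.6% and 92.4% in those of the exon-3-lacking line. Each library of the exon-3-containing line lay below every library of the same condition of the other line. The share of all events that separate so is not given here, and the exon is named because of a call between the lines, so nothing is read from it. Between control cells of the lines limma called 0 of 94 member events, where 0% of all events were called. Inclusion of the Nrp2 exon was 64.2% and 72.0% in rescue, 65.2% and 47.7% in knockdown and 51.4% and 53.9% in control cells of the exon-3-containing line, and its replicates differed by up to 24.5 points (rescue cells of the exon-3-lacking line, 75.7% and 51.2%). Both exons were found in GENCODE M21 by their length and the lengths of both flanking introns, and both are multiples of 3 in length. They are printed because those calls concern them, with their last 3 bases in capitals.
Unc5b exon of 33 nt (GRCm38 chr10:60777185-60777217, minus strand): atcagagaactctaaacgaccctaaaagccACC
Nrp2 exon of 51 nt (GRCm38 chr1:62812534-62812584, plus strand): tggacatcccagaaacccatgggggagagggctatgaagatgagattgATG
A Sema6a exon is also listed there for the difference of the lines after knockdown (-21.6 points in the authors' deposited table).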

How the data were processed

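The RNA of 12 libraries (6 groups of 2 biological replicates, named so by the labels) was sequenced as stranded polyA libraries, per the labels' protocols. RPKM values were deposited by the authors as 1 value per group; Salmon 0.14.1, edgeR and the build mm9 are named in the submitters' processing notes without a role. The log2 fold changes and the p-values and FDR beside them are those of the authors' deposited table. Inclusion values are deposited by the authors as percent per library on mm9. No read counts were used, so the depth is unknown and no interval for counting error is given.

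Inclusion was fitted over all events measured in 12 of 12 libraries with a mean between 2% and 98% (28980 events of 7019 genes) with limma 3.58.1 in R 4.3.3, with 6 group means, a trend and robust variances, and Benjamini-Hochberg adjustment. A call needs an adjusted p under 0.05 and 15 percentage points. P-values measure the spread between 2 libraries a group. A z test from the authors' deposited p-values compared the lines. The script was tested on simulated data. Sequences come from GENCODE M21 transcripts (GRCm38), matched by exon and intron lengths.

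Named are the marker genes, members that passed in a line, the highest member of each family, members next to 1 RPKM, called or author-listed events, and list genes that passed in both lines or, with none, the 4 with the largest changes. The members and lists were chosen with earlier results of these data known. Alternatives were other filters, thresholds, pseudocounts, a replicate block and leaving out each library.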

Additional observations from a re-analysis of the deposited data

How the results depend on the processing

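Of the counts of member events on knockdown as the mean of both lines (6), the filter on the mean and the size limit matter: 0 were called with no filter on the mean and 10 with no size limit, and leaving out 1 library each gave 1 to 7. The replicate block gave 8 for that mean, 5 for the exon-3-containing line (1 without it) and 1 for the exon-3-lacking line (0 without it). Same-numbered libraries of a line had correlated deviations (r from 0.149 to 0.31), but there are 2 numbers and no label says that a number marks a shared day, so they were not treated as pairs. The single call in the exon-3-containing line became 0 with values needed in 10 of 12 libraries, 0 with no filter on the mean and 0 with only the libraries of that line, and 0 to 2 when 1 library was left out. For the exon-3-lacking line leaving out 1 library gave 0 to 4. The authors' deposited table calls 11 member events on knockdown in either line and 2 for rescue against knockdown of exon-3-containing cells, where limma called 1, 0 and 0. In expression, 7 members passed in both lines at an FDR under 0.1 and 17 by the combined p, against 4 at an FDR under 0.05. The log2 fold change of Plxna3 reversed when taken from the group RPKM values: 0.1156 and 0.1172 in the exon-3-containing line (pseudocounts 1 and 0.1), against -0.1065 in the authors' deposited table, and 0.1385 and 0.1409 in the exon-3-lacking line, against -0.0752. The cause of these changes was not tested. With 2 libraries a group and no read numbers, what depth limits cannot be given.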
